A study of Chlamydomonas reinhardtii with 15 samples.

Results

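The transcripts described here are 115 late-rising gene models of the Chlamydomonas reinhardtii wild type cc3491, out of 11183 models that could be measured in that strain and 14557 models on the array. They were chosen by their own time course in cc3491. The log2 ratio of starved over 0 h RNA had to be 0.5 or less at 24 and 48 h without sulfur and 1 or more at 72 and 96 h. Models of the arylsulfatase, sulfate transporter, extracellular polypeptide, antenna, photosystem, carbon-concentrating, phosphate transporter and hydrogenase families were to be left out, but 0 of the 115 candidates carried such a symbol. The question put to the data was what these transcripts did in npq4 and in 4A+, whose arrays the choice did not use.

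As labelled, every array set RNA of a sulfur-starved culture in Cy5 (red) against RNA of the same strain at 0 h in Cy3 (green). There were 4 arrays of cc3491 and 4 of cc125, both wild types, 3 of npq4 (24, 48 and 96 h), and 4 of 4A+, the wild type that served as control for npq4. The mutant npq4 arose by insertional mutagenesis and carries a knockout of both LHCSR3 genes, which code for stress-related chlorophyll-binding proteins of photoprotection. All cultures were moved from complete TAP medium, which holds acetate as carbon source, to TAP without sulfur under constant light. Each time point was 1 array of pooled samples, so time points stand in for replicates. P-values measure only the spread between arrays within strains, as 1 estimate shared by 4A+, npq4 and cc125. All arrays of a strain shared the 0 h RNA, whose own spread is therefore not in any test.

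Sulfur is needed for cysteine, methionine and sulfolipid. On its loss, Chlamydomonas is known to induce sulfate uptake and periplasmic arylsulfatase, to recycle its sulfur-rich compounds and to reduce photosynthesis. Most of the 115 models have no assigned function. A symbol or description from the study's tables was found for 7 of them, and 96 matched a locus of the RefSeq annotation (assembly v5.5).

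The arrays differed in how much they could measure. The number of probes above background lay between 16775 and 29190 in green. For red, 4A+ gave 8797 to 12496 and the remaining strains 14428 to 26685. LHCSR3, the gene that npq4 lacks, was above background in either channel on 0 of 3 npq4 arrays, and in both channels on 4 of 4 arrays of 4A+. The arrays labelled cc125 correlated with those of cc3491 at -0.51 to -0.09 across all models, against 0.50 to 0.65 for npq4 and 0.35 to 0.53 for 4A+. With such negative values the direction of the cc125 ratios is not settled, and they are given both as labelled and with the sign turned.

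In cc3491 the members had a median log2 ratio of -0.25 at 24 h, 0.13 at 48 h, 1.51 at 72 h and 1.69 at 96 h. The medians of all 11183 models were -0.06, 0.06, -0.21 and -0.28 at these times. These values chose the members and are a description only. The mean of 72 and 96 h ranged over the members between 1.03 and 3.83, with 29 members at 2 or more and 4 at 3 or more. From 72 to 96 h the ratio was higher in 75 members, by 1 or more in 18, and it was lower by 1 or more in 5. At 24 h, 17 members stood at -1 or less, and at 48 h there were 5. Relative to each array's 75th percentile, the late minus early level had a median over the members of 1.81 in red. In green, where all arrays carried the same 0 h RNA, it was 0.03. The level rose by more than 1 in 98 members in red and 2 in green, and fell by more than 1 in 0 and 3. In 4A+ these counts were 13 and 1, and 6 and 1. In npq4 they were 18 and 17, and 16 and 7, so green moved there too. On the arrays labelled cc125 they were 0 and 15, and 3 and 20, so mainly green moved. The reason for the moves in green was not tested.

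**Figure D1:**
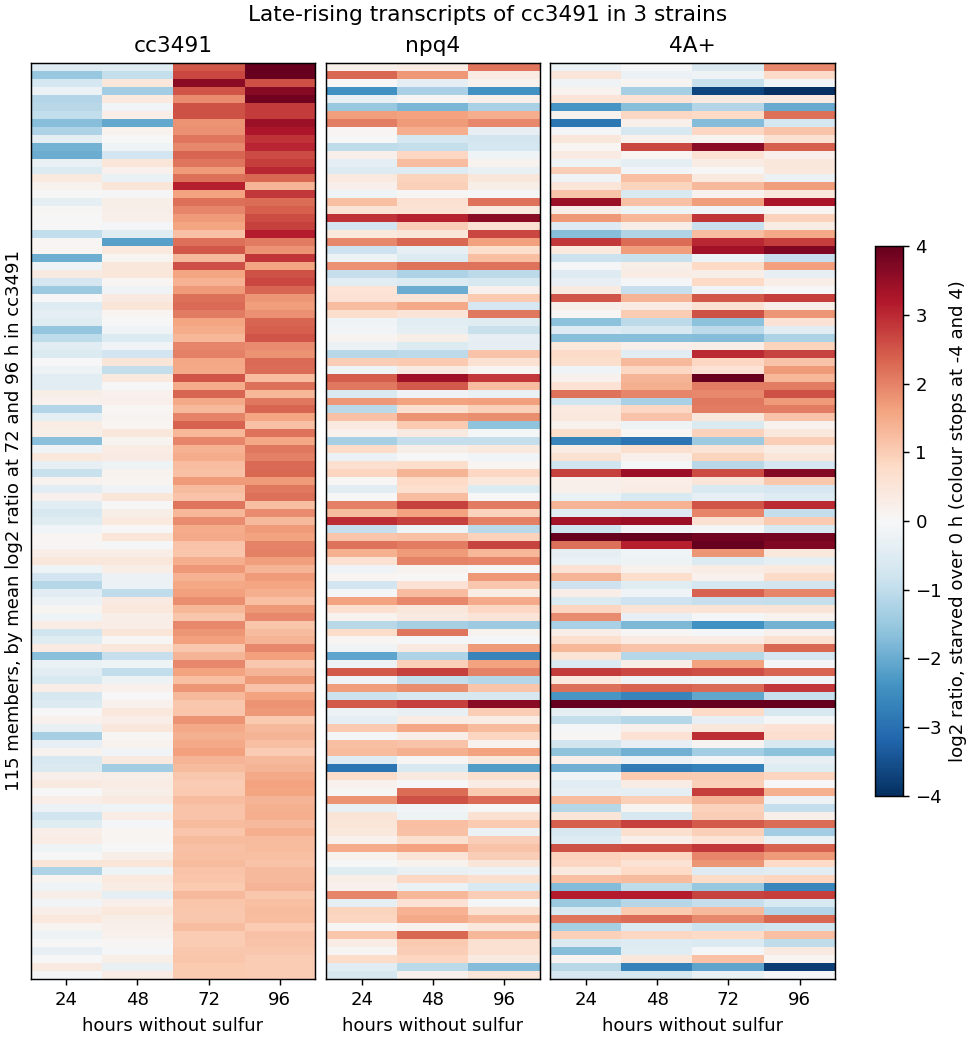
Log2 ratio of starved over 0 h RNA for each of the 115 members (rows, ordered by their mean at 72 and 96 h in cc3491) on the arrays of cc3491, npq4 and 4A+ (columns, hours without sulfur). Red is higher and blue lower in starved cells. The step between 48 and 72 h in cc3491 chose the rows. In npq4, which has no 72 h array, 22 rows are at 1 or more at every time, and in 4A+ 16 rows are.

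Most of the highest late ratios in cc3491 belonged to models that were weakly measured in npq4 and 4A+. Model 182389 had log2 ratios of -0.50, -0.49, 2.49 and 5.18 at 24, 48, 72 and 96 h, the highest late mean of the group. It was followed by model 144228 with -1.52, -0.95, 2.66 and 4.07, model 143608 with -0.70, 0.45, 3.61 and 2.58, model 146801 with -0.23, -1.40, 2.52 and 3.63, and model 152583 with -1.18, 0.38, 1.89 and 3.86. Apart from model 146801, each of these rested on 1 probe and was above background in neither channel on any 4A+ array. In npq4, model 143608 was above background on no array, and the remaining 3 single-probe models on 1 or 2 of 3 arrays in red. In cc3491 itself, red was above background on 2 of 4 arrays for models 182389 and 144228. For models 143608 and 152583 red was above background on 3 of 4 cc3491 arrays, and green on 2 of 4.

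Near the limits the values ran without a break. The 3 members closest to the early limit had higher early ratios of 0.49 each (models 186528, 118195 and 122334), and the 3 nearest models outside had 0.51, 0.51 and 0.52 (158491, 195611 and 15852). At the late limit the lower late ratio was 1.00 in models 123505 and 182839 and 1.01 in model 188181, against 0.99, 0.98 and 0.98 in the excluded models 157393, 188753 and 193213.

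Of the members, 28 were measured by 3 probes, 48 by 2 and 39 by 1. Among the 76 with more than 1 probe, the late minus early difference in cc3491 was above 1 at every probe in 49 and above 0 at every probe in 70. In the remaining 6, a probe stood at or below 0.

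The late rise was looked for in npq4 and 4A+ as the late minus early difference, with limma across all 11183 models. The late arm of npq4 is 1 array, so its spread is taken from the other groups, and the absence of calls does not show that the rise was absent. No member was called at an adjusted p below 0.05 and a change of 2-fold or more in either strain, and none of all models was called (0% in each direction). At an unadjusted p below 0.05 there were 6 members in npq4, 4 higher and 2 lower, against 3.06% and 1.65% of all models. In 4A+ there were 16, 14 higher and 2 lower, which is 12.2% and 1.74% of the members against 3.33% and 2.03% of all models. The smallest adjusted p over the members was 0.67 in npq4 and 0.30 in 4A+. The members' median difference was -0.01 in npq4 and 0.20 in 4A+, against 0.05 and -0.06 over all models. A difference of 2-fold or more upward was measured in 14 members in npq4 and 19 in 4A+, against 9.77% and 6.66% of all models. A downward difference of that size was measured in 9 and 4 members, against 5.78% and 5.39% of all models.

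The late minus early difference itself was compared between npq4 and 4A+ at the matched times of 24, 48 and 96 h, again with 1 late array per strain. It had a median over the members of -0.22, against 0.13 over all models. Limma called 0 members and 0 of all models (0% in each direction). At an unadjusted p below 0.05, 3 members were lower and 0 higher in npq4 than in 4A+, against 2.01% and 2.02% of all models.

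Held to the same limits as cc3491, 6 members met them in npq4 (5.22%, against 2.75% of all models), with 96 h as the only late time. In 4A+ 4 members met them (3.48%, against 0.885%). The models in npq4 were 142763, 160970, 179840, 182389, 187629 and 193223, and those in 4A+ were 59099, 160597, 160970 and 188925, all named here after their values had been seen. Of the npq4 models only 160970 was above background in red on all 3 arrays, and in 4A+ only 160970 and 188925 were above background at all.

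Model 160970 met the limits in both strains, as did 0.0984% of all models. Its log2 ratios were -0.99, -0.48, 1.16 and 3.14 in cc3491 at 24, 48, 72 and 96 h. In npq4 they were 0.42, 0.47 and 2.68 at 24, 48 and 96 h, and in 4A+ -1.70, -1.21, 1.24 and 1.51. All 3 of its probes followed this course, with 96 h values between 2.33 and 3.17 in npq4 and between 1.22 and 1.87 in 4A+. The late minus early difference was 2.23 ± 0.91 (SE) in npq4, with a limma adjusted p of 0.99, and 2.83 ± 0.75 in 4A+, with 0.575. Model 188925 had ratios of 0.17, 0.20, 1.51 and 2.12 in cc3491 and of -0.81, -1.30, 2.10 and 1.69 in 4A+. It rested on 1 probe, which was above background in red on only 2 of 4 arrays in 4A+. In npq4 the model was above background in green on 2 of 3 arrays. Its difference of 2.95 ± 0.48 (SE) in 4A+ had an adjusted p of 0.3. In npq4 this model was high throughout, at 1.74, 1.62 and 1.65, and its mean ratio of 1.67 ± 0.53 (SE) passed the test (adjusted p = 0.0312), but not the 2-fold limit with normexp and loess, at 0.45.

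The mean ratio against 0 h over all time points was tested next, and there the members stood higher than most transcripts. In npq4, 25 members were called higher and 3 lower (21.7% and 2.61%, against 9.59% and 15.5% of all models). In 4A+, 29 were called higher and 11 lower (25.2% and 9.57%, against 11% and 21.7%). Both directions together gave 24.3% of the members in npq4 and 34.8% in 4A+, against 25.1% and 32.7% of all models. The members' median of the mean log2 ratio was 0.46 in npq4 and 0.32 in 4A+, against -0.16 and -0.31 over all models. With normexp background correction and loess in place of the median-centred processed signals, the calls came to 13 higher and 1 lower in npq4 (11.3% and 0.87%, against 5.35% and 4.78% of all models) and to 9 higher and 1 lower in 4A+ (7.83% and 0.87%, against 4.83% and 5.66%). In total these are 12.2% and 8.7% of the members, against 10.1% and 10.5% of all models. All of the 25 and 27 of the 29 higher members kept 1 sign on every array of their strain.

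Not every member could be measured in these strains. A probe was above background in either channel on every npq4 and 4A+ array for 67 members. For 8 members neither channel was above background on any npq4 array, and for 30 on any 4A+ array. Of the 29 members called higher in 4A+, 3 were of this kind (142763, 160597 and 193223), so their ratios are no measure of a transcript. Red was above background on no 4A+ array for 2 of the 11 lower members. Red was then set to at least the lowest level above background. On the processed signals this made model 191752 at least 1.87-fold and model 194488 at least 1.37-fold lower in starved 4A+ cells. With normexp and loess these models were at log2 ratios of -0.20 and -0.03 in 4A+, and neither was called. The floors thus hold for the processed signals only.

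**Figure D2:**
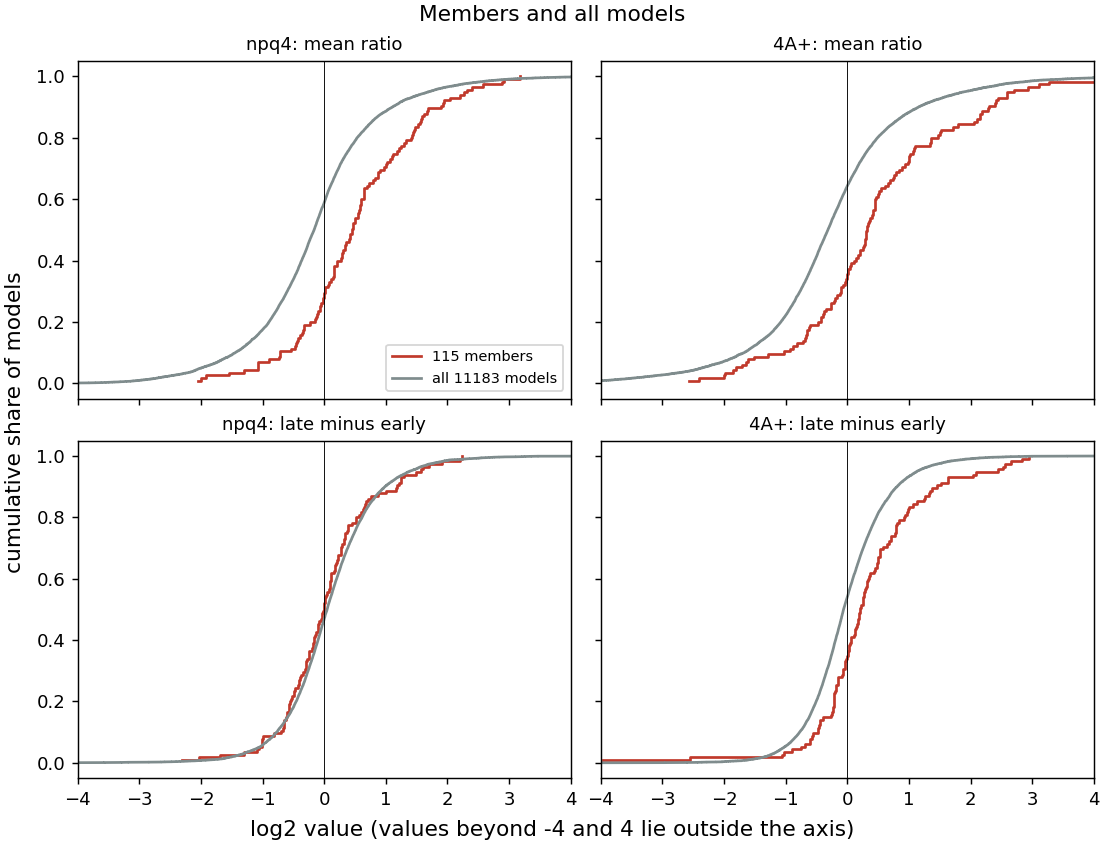
Cumulative share of the 115 members (red) and of all 11183 models (grey) by log2 value, for the mean ratio against 0 h (top) and the late minus early difference (bottom), in npq4 (left) and 4A+ (right). The members lie to the right of all models in both top panels, with medians of 0.46 against -0.16 in npq4 and 0.32 against -0.31 in 4A+. In the lower panels the medians are -0.01 against 0.05 and 0.20 against -0.06.

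The calls overlapped in part. There were 13 members called higher in both strains (11.3%, against 5.24% of all models). They made up 52.0% of the npq4 list and 44.8% of the 4A+ list. Over all models these shares of the lists were 54.6% and 47.8%. Among models called higher in 1 strain, the members were thus not shared more often than the background. Another 2 were called lower in both (8.17% of all models), 2 higher in npq4 but lower in 4A+ (0.537%) and 0 the other way (0.143%). For 64 members no call was made in either strain (55.7%, against 56.3% of all models).

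**Figure D3:**
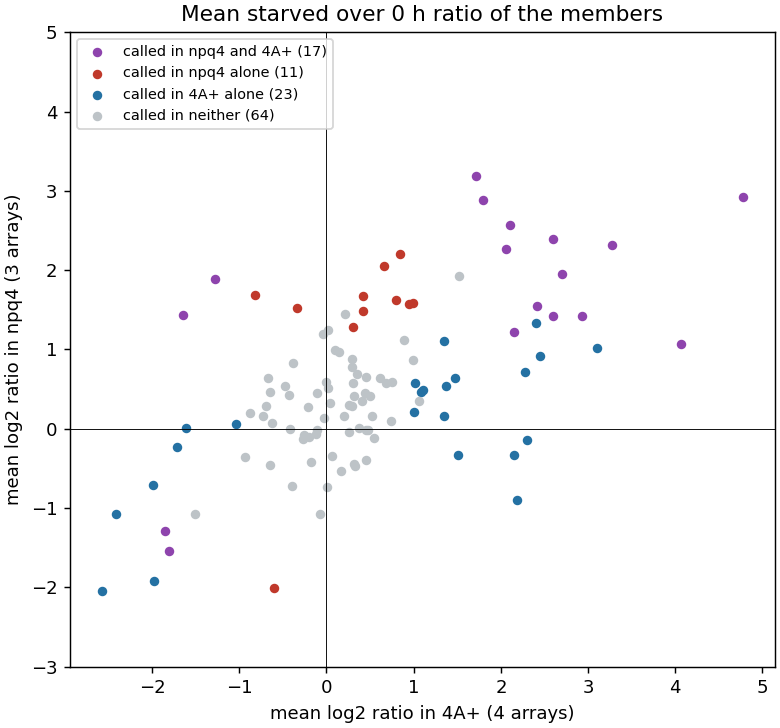
Mean log2 ratio of starved over 0 h RNA for each member in npq4 (vertical axis, 3 arrays) against 4A+ (horizontal axis, 4 arrays). Colours mark members called in npq4 and 4A+ (17), in npq4 alone (11), in 4A+ alone (23) and in neither (64). Most members called in both lie at upper right, and 2 lie at upper left.

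NII1 (model 192085, locus CHLRE_09g410750v5) codes for nitrite reductase, the plastid enzyme that reduces nitrite to ammonium in nitrate assimilation. Its log2 ratios were 0.05, -2.16, 2.19 and 2.09 in cc3491 at 24, 48, 72 and 96 h. In npq4 they were 1.91, 2.30 and 1.64, and in 4A+ 2.82, 2.23, 3.00 and 2.77. The transcript was thus raised at every time in npq4 and 4A+, but at 72 and 96 h only in cc3491. The mean was 1.95 ± 0.33 (SD, n = 3 arrays) in npq4 and 2.70 ± 0.33 (SD, n = 4 arrays) in 4A+, with limma adjusted p of 0.0023 and 3.35e-05. With normexp and loess the mean was 1.23 in npq4 (adjusted p = 0.0222) and 0.92 in 4A+, which was below 2-fold and no longer called (adjusted p = 0.045).

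The nitrogen genes with a symbol in the study's tables gave 13 models, of which NII1 was the only member. Those tables list genes that the study picked from these and similar arrays, so the list is not independent evidence of its direction. Of the 13, 5 were called higher and 1 lower in npq4, and 6 higher and 1 lower in 4A+, with list medians of 1.15 and 1.40. NAR2, a partner protein of nitrate transporters, had ratios of 2.05, 1.77, 3.93 and 4.30 in cc3491 and means of 4.52 in npq4 and 2.88 in 4A+. GLN3, a glutamine synthetase, which binds ammonium into glutamine, stood at 1.22, 0.34, 3.55 and 3.76 in cc3491. In npq4 GLN3 had 5.13, 3.11 and 3.50, a mean that was called (adjusted p = 0.00217). In 4A+ GLN3 had -0.05, -0.07, 2.93 and 2.82, and its mean of 1.41 was not called (adjusted p = 0.105). NSG13, named for its induction in nitrogen-starved gametes, was called higher in both strains, with means of 1.51 in npq4 and 1.40 in 4A+. LAO1, an amino acid oxidase that frees ammonium from amino acids, was called lower in npq4 at -1.26. RWP11 was the model called lower in 4A+, at -2.27, and was at -0.90 in npq4. AOC5 had -3.87, -1.81, -1.72 and -3.50 in cc3491 and was called in neither npq4 nor 4A+. The other 13 lists, which ranged over phosphate, inorganic carbon, sulfur, fermentation, starch, lipid, proteolysis, chaperone, oxidative stress, flagellar, gamete, photosynthesis and ribosome genes, held 1 to 34 measured models each and 0 members. Only 4 of the 115 members carried a symbol at all. The lists therefore cannot show that these functions were absent from the members.

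NED1 (model 206217, locus CHLRE_10g457262v5) is annotated as a member of the NAD-dependent epimerase and dehydratase family, enzymes that mostly act on nucleotide sugars. It had log2 ratios of -0.45, 0.39, 2.52 and 1.22 in cc3491. In npq4 it was at 2.43, 3.40 and 2.84, and in 4A+ at 0.18, 1.37, 4.27 and 1.34. Its maximum over time thus fell at 72 h in both cc3491 and 4A+, a time without an npq4 array. These ratios are averages over 2 probes, of which 1 came, per the methods, from an earlier array design. In 4A+ that probe had 0.49, 3.13, 4.88 and 2.73, and the other had -0.14, -0.39, 3.66 and -0.04. In npq4 both probes were above 0 at every time. The mean was 2.89 ± 0.48 (SD, n = 3 arrays) in npq4 (limma adjusted p = 0.00221) and 1.79 ± 1.74 (SD, n = 4 arrays) in 4A+ (adjusted p = 0.0104). Of these, only the npq4 call was kept with normexp and loess, at 1.86, against 0.71 in 4A+ (adjusted p = 0.176).

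MAPK5 (model 131998), a mitogen-activated protein kinase of the family that relays stress signals, had ratios of -1.46, -0.14, 1.70 and 2.33 in cc3491. It rested on 1 probe and was above background on 2 of 4 cc3491 arrays in each channel. In npq4 it was above background on 1 of 3 arrays in each channel, and in 4A+ on 0 of 4 arrays. The actin-related model 112378 had 0.38, -0.27, 2.21 and 2.29 in cc3491 and 0.39, 0.88 and 0.47 in npq4, where its mean was not called (limma adjusted p = 0.154). In 4A+ it was above background in red on 1 array.

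Model 132065, annotated as a short-chain dehydrogenase/reductase, a family of NAD(P)-dependent oxidoreductases, ran the other way. Its log2 ratios were -1.12, -0.10, 2.56 and 2.80 in cc3491, but -1.50, -1.83 and -1.28 in npq4 and -2.35, -1.70, -1.19 and -2.0 in 4A+. Every npq4 and 4A+ value was below 0. The mean was called lower in npq4 (-1.54 ± 0.29 SE, limma adjusted p = 0.00167) and in 4A+ (-1.81 ± 0.26 SE, adjusted p = 8.5e-05). Model 188920, with no description, was the other member called lower in both, at -1.29 ± 0.25 (SE) in npq4 and -1.85 ± 0.21 (SE) in 4A+, although red was above background on only 1 of 4 arrays in 4A+. With normexp and loess model 132065 was at -1.16 in npq4 and -0.73 in 4A+, and model 188920 at -0.61 and -0.32, so that of these 4 calls only that of 132065 in npq4 was kept.

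**Figure D4:**
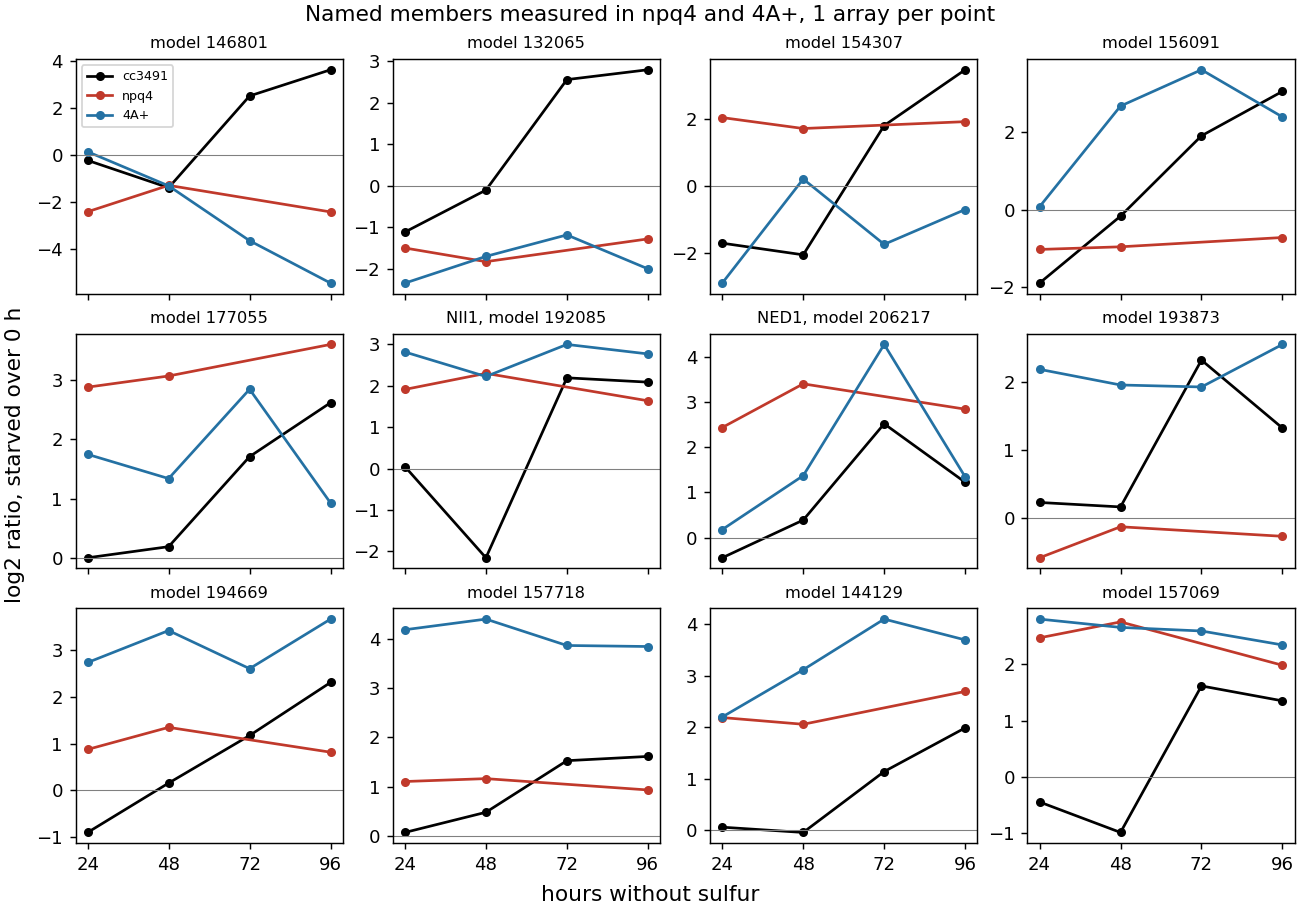
Log2 ratio of starved over 0 h RNA against hours without sulfur for 12 named members measured in npq4 and 4A+, with 1 array per point and a vertical scale of its own in each panel. In cc3491 (black) all panels step up between 48 and 72 h. In npq4 (red) and 4A+ (blue) NII1, NED1 and models 177055, 194669, 157718, 144129 and 157069 are above 0 at every time, while model 132065 is below 0 at every time. Points are averages over a model's probes, and for NED1 in 4A+ only 1 of 2 probes is above 0 at every time.

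Several unannotated members were raised from the earliest time in npq4 and 4A+. In npq4 a log2 ratio of 1 or more at all 3 times was found for 22 members (19.1%, against 6.6% of all models), and in 4A+ at all 4 times for 16 (13.9%, against 6.01%). Some of these were weakly measured. Model 142763 was above background in neither channel on any 4A+ array, and model 194957 in green on 0 of 4. In npq4 model 145919 was above background on 1 of 3 arrays in each channel, and model 190091 in green on 0 of 3. A ratio of -1 or less at every time was measured for 4 members in npq4 (3.48%, against 10.3%) and 6 in 4A+ (5.22%, against 11.8%). Model 182582 (CHLRE_10g456100v5) stood at -0.56, 0.18, 1.08 and 1.79 in cc3491, at 2.44, 2.74 and 3.60 in npq4 and at 4.40, 4.88, 5.33 and 4.48 in 4A+, with a mean in 4A+ of 4.77 ± 0.36 (SE, limma adjusted p = 4.56e-07). This was the highest of all members on the processed signals, but with normexp and loess model 59366 was higher, at 2.83. Model 144129 had 0.06, -0.04, 1.14 and 1.99 in cc3491, 2.19, 2.06 and 2.69 in npq4 and 2.20, 3.11, 4.10 and 3.69 in 4A+. Model 157069 had -0.44, -0.98, 1.61 and 1.35 in cc3491, 2.47, 2.75 and 1.98 in npq4 and 2.80, 2.65, 2.59 and 2.34 in 4A+. The means of these 3 models were smaller with normexp and loess, at 1.38 in npq4 and 2.20 in 4A+ for model 182582, 1.55 and 1.41 for model 144129 and 2.01 and 1.06 for model 157069, and all 6 were called.

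Further named members called higher were 177055 in npq4 (2.88, 3.07 and 3.60), 190091 in npq4, and 194669 (2.73, 3.42, 2.60 and 3.66) and 59366 (3.13, 3.13, 2.70 and 2.78) in 4A+. For model 190091 green was above background on no npq4 array, which makes starved npq4 cells at least 4.40-fold higher than 0 h cells on the processed signals. Under normexp with loess, model 190091 was at 0.46 in npq4 and model 194669 at 1.14 in 4A+ (adjusted p = 0.0745), and neither was called. Members called lower in 4A+ alone were led by 146801, with 0.14, -1.32, -3.66 and -5.47, whose cc3491 ratios at 72 and 96 h were 2.52 and 3.63. Its call in 4A+ rested on the late arrays, since the mean of -2.58 became -1.61 without the 96 h array (limma adjusted p = 0.105) and -2.22 without the 72 h array (0.0718). Models 150338 (-2.41 ± 0.42 SE), 119311 (-1.99 ± 0.30 SE) and 156500 (-1.98 ± 0.63 SE) followed, with red above background on only 2, 1 and 1 of 4 arrays in 4A+. Without the 24, 48 or 72 h array, model 156500 was no longer called (adjusted p = 0.0526, 0.0918 and 0.0855). None of the 4 was called with normexp and loess, at -1.80 for model 146801, -0.62 for 150338, -0.36 for 119311 and -0.31 for 156500. In npq4 model 194360 (-2.11, -1.22 and -2.68) was called, but not with normexp and loess (-0.50), and no longer when any of the 3 arrays was left out (adjusted p 0.0609 to 0.169).

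A direct test of npq4 minus 4A+ on the mean ratio at 24, 48 and 96 h was added after the values had been seen. Limma called 6 members higher and 5 lower in npq4 than in 4A+ (5.22% and 4.35%, against 8.15% and 4.81% of all models), a share no larger than the background. Model 138013 (CHLRE_06g290900v5) had 1.26, 1.41 and 1.62 in npq4, against -1.61, -1.93, -1.41 and -1.63 in 4A+. The difference was 3.16 ± 0.37 (SE, adjusted p = 0.000405). Model 154307 had 2.04, 1.71 and 1.92 in npq4, against -2.89, 0.21, -1.74 and -0.70 in 4A+. Lower in npq4 were, among others, model 193873, with -0.59, -0.13 and -0.27 in npq4 against 2.19, 1.96, 1.93 and 2.55 in 4A+, and model 157718, with 1.11, 1.17 and 0.94 in npq4 against 4.18, 4.39, 3.86 and 3.84 in 4A+. With normexp and loess the difference was -1.09 for model 157718 (adjusted p = 0.161) and -0.71 for model 193873, and neither was called, while model 154307 lost its call without any 1 of the matched arrays other than that of 4A+ at 48 h (adjusted p 0.0737 to 0.113). Each strain lay on a slide of its own with its own 0 h RNA, so strain, slide and the state of the 0 h culture cannot be told apart, nor can time point and position on the slide. A ratio between equal amounts of RNA also cannot separate a change in a transcript from a change in total RNA per cell.

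On the arrays labelled cc125 the late minus early difference had a median over the members of 0.00, as over all models. Limma called 0 members and 1 of all models (0% higher and 0.00894% lower as labelled, which turning the sign exchanges). At an unadjusted p below 0.05 there were 10 members higher and 10 lower as labelled, against 3.25% of all models in each direction. Without the 24 h array 13 members were called (11.3%, against 9.51% of all models), 5 higher and 8 lower as labelled, which turning the sign exchanges. The limits of cc3491 were met by 2 members as labelled, 160970 and 185683 (1.74%, against 0.447% of all models), and also by 2 with the sign turned (1.74%, against 0.501%).

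Some members lay close together in the genome. Of the 96 members placed on the RefSeq annotation (assembly v5.5), 10 had another member within 5 genes (10.4%), against 5.55% of the 9458 placed models. These 10 formed 5 pairs. Models 133049 and 154307 (CHLRE_03g180650v5 and CHLRE_03g180750v5) were separated by 1 gene. In npq4 model 133049 had 0.03, 0.17 and 0.41, against 2.04, 1.71 and 1.92 for its neighbour 154307, so the pair did not move alike there. The probes of model 133049 disagreed in cc3491. Their late minus early differences were 3.01, -0.54 and 0.44. The pair 143445 and 156148 (CHLRE_13g571400v5 and CHLRE_13g571100v5) had 4 genes between them, and only 156148 was called higher in both strains (in neither with normexp and loess), with 0.86, 1.53 and 1.28 in npq4 and 2.14, 2.24, 1.93 and 2.31 in 4A+.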

How the data were processed

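The 115 models, the gene lists and the tests were chosen with earlier results of these data known. The authors deposited scanner intensity values per spot and a log10 ratio of red over green for 15 arrays (Agilent Feature Extraction 10.7.3.1, per the submitters' processing notes), already background-subtracted and dye-normalized. The deposited matrix equalled these log10 ratios. The flags for signal well above background are a deposited score of 0 or 1. Here the processed red over green signal was taken as log2 and centred on the array median, without the lowess step of the methods, and averaged over a model's probes with signal above background in red or green on all 4 cc3491 arrays (23433 probes). Ratios of npq4, 4A+ and cc125 (11 arrays, cc3491 left out) were fitted with limma 3.58.1 in R 4.3.3, with a mean per strain or per strain and phase (early 24 and 48 h, late 72 and 96 h). For npq4 minus 4A+ the 72 h array of 4A+ was left out. P-values were adjusted by Benjamini-Hochberg over all 11183 models, and a call needed an adjusted p below 0.05 and 2-fold. Alternatives were normexp (offset 50, on median signals, fitted where the net signal exceeded -100) with loess, no centring, other probe filters, Holm, other array sets and leaving out arrays. Fits were tested on simulated data. Models named were those with a symbol or description, the 5 highest in cc3491, up to 5 called each way per test and those at the limits. One of them is not reported here. Symbols came from the study's tables, where 18 models with conflicting symbols were left unnamed. The number of arrays limits the precision. Promoter motifs were not analysed here.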

Additional observations from a re-analysis of the deposited data

Results flagged for a closer look

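In 2 of 90 groups of 4 arrays, formed by a named member and a strain, 1 array stood apart from the other 3 by Dixon's limit at 95%. Chance marks about 1 group in 20. Model 182582 was at -1.96 on the 48 h array labelled cc125, against 0.26 to 0.45 on the other 3. Model 193873 was at -1.03 on the 24 h array labelled cc125, against -1.91 to -1.87.

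The mean ratio of 10 named members differed between npq4 and 4A+ by a limma test of the difference itself. It was higher in npq4 by 3.16 for model 138013, 3.02 for 154307, 2.46 for 6823, 1.93 for NED1 (206217) and 1.84 for 177055. It differed by -3.07 for 157718, -2.61 for 156091, -2.56 for 193873, -1.60 for 59366 and -1.54 for 182597. Adjusted p ranged between 0.000405 and 0.036. Model 6823 was above background on no 4A+ array, so its 4A+ ratio is no measure of a transcript. For NED1 the difference was 1.10 with the 72 h array of 4A+ included (adjusted p = 0.357). With normexp and loess the calls of 6823 (0.68), 157718 (-1.09), 156091 (-1.27), 193873 (-0.71) and 182597 (-0.44) were lost. Without 1 array at a time, the calls of 154307, 156091, 177055, NED1, 59366 and 182597 were each lost at least once.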

How the results depend on the processing

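Normexp with loess gave 112 members, of which 59 were shared with the 115. The count was 76 with models of at least 2 probes, and between 111 and 166 under the other settings. Without the probes that, per the methods, came from an earlier array design, 127 models met the limits, 84 of them shared. The paper reports lower log2 ratios and a high potential for cross hybridization for such probes, and left them out. They were kept in the main result here, where 100 of the 115 members also had a probe of another kind. Late minus early stayed at 0 called members in npq4, 4A+ and their difference under every alternative run. Leaving out the 96 h array of npq4, or of 4A+ for the difference, leaves no late array and was not run. With the time point as replicate block, npq4 minus 4A+ also called 0 members. Arrays of equal time deviated together at r = 0.14, -0.01 and 0.12 (24, 48 and 96 h), so the block is no pairing by design. On cc125 arrays, leaving out 1 array gave 0 to 13 members. For the mean ratio, normexp with loess called 14 members in npq4 (28 as reported) and 10 in 4A+ (40 as reported), and Holm 2 and 12. Leaving out 1 array gave 19 to 25 in npq4 and 31 to 40 in 4A+. The added npq4 minus 4A+ mean ratio (11 members) gave 6 with normexp and loess, 1 with Holm, 23 with npq4 and 4A+ arrays alone (20% of members, against 18.7% of all models), 26 with the time point as replicate block (22.6%, against 17.9%), and 5 to 9 without 1 array. Of 363 repeats for named members, 288 kept call and direction, and 75 lost the call with the direction kept. The causes were not tested. Weak red signal limits 4A+ most.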
